A study of Mus musculus with 2 samples.

Results

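The nuclear-encoded genes of the mitochondrial respiratory chain were followed through the cell types of regenerating mouse muscle. The members were all genes of the count table whose symbol begins as a structural subunit of complex I (Nduf followed by a, b, c, s or v and a digit, which leaves out Ndufab1), complex II (Sdh), complex III (Uqcr), complex IV (Cox4 to Cox8) or complex V, the ATP synthase (Atp5). This rule uses gene names and no measured value, and it found 84 members among 27998 genes. Of these, 35 belonged to complex I, 4 to complex II, 8 to complex III, 18 to complex IV and 15 to complex V. Ndufa4 and its paralog Ndufa4l2 were kept apart as a pair of 2, since NDUFA4 is a complex IV subunit despite its name, and the remaining 2, Atp5s and Atp5sl, carry the prefix without being subunits of the synthase.

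Complexes I to IV pass electrons from NADH and succinate to oxygen, complexes I, III and IV pump protons across the inner mitochondrial membrane as they do so, and complex V uses the returning protons to make ATP. Most subunits are encoded in the nucleus and imported, whereas a small core, among it the catalytic subunits of complex IV, is encoded by mitochondrial DNA. Skeletal muscle and heart replace some complex IV subunits by muscle isoforms, namely COX6A2 for COX6A1, COX7A1 for COX7A2 and COX8B for COX8A. COX4I2 is a lung and oxygen-sensing isoform of COX4I1, and NDUFA4L2 is a hypoxia-inducible paralog of NDUFA4.

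The data were 2 droplet single-cell libraries from the tibialis anterior of C57Bl/6 mice, both injured with notexin, a snake venom phospholipase that destroys myofibers, and collected at day 2 or day 7 after injury. Each day had 1 library from 1 mouse, the whole muscle was dissociated without sorting, and no uninjured library entered the comparisons. Both libraries were labelled as coming from 7-month-old females. The deposited cell table instead gives male for both and 4 months for the day 2 mouse, and the counts held 6575 and 4856 Y-linked transcripts beside 5 and 1 Xist transcripts at day 2 and day 7. The label of female thus does not match the transcripts, and a difference in age between the mice cannot be told apart from the day. With 1 library a day nothing could be tested. The 95% intervals given below cover counting error only, and any difference between days is a difference between 2 libraries.

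After the limits on cells, 3178 labelled cells remained at day 2 and 3196 at day 7, with a median of 9010 and 6557 transcripts per cell. A single barcode was shared by both sets of kept cells. The members made up 2.04% of all transcripts of the kept cells at day 2 and 2.11% at day 7. In free RNA, read from barcodes with 1 to 100 transcripts, they made up 0.814% and 1.61%. Levels are given as CPM, counts scaled to the total transcripts of a label, for labels with at least 10 kept cells. Because each transcript is counted once, at its 3′ end, CPM is a count of transcripts and is not divided by gene length. The labels themselves were assigned from the same transcripts, so that differences between labels are descriptions.

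Some labels did not match their marker genes throughout. Cells labelled T Cells at day 2 (50 cells) held 319 CPM of T cell markers beside 2312 CPM of basophil and mast cell markers and 2327 CPM of endothelial markers. Cells labelled Smooth Muscle held more endothelial than mural marker transcripts on both days, 8485 against 2889 CPM at day 2 and 21528 against 5159 CPM at day 7. The summed members of T Cells, and Cox4i2 and Ndufa4l2 of Smooth Muscle, are therefore also described after restriction to cells with their own markers. All other values of these labels are those of the whole label, with its mixed cells. The label Myonuclei (Type IIb) held 243096 CPM of the 9 myofiber markers and Myonuclei (Type IIx) held 240304 CPM, with all 9 markers detected in each.

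Summed over all 84 members, the myofiber-containing labels of day 7 stood apart from every other cell type. Myonuclei (Type IIx) reached 124798 CPM (122277 to 127357, 20 cells) and Myonuclei (Type IIb) 88973 CPM (88026 to 89928, 76 cells), so that 12.5% and 8.90% of their transcripts came from these genes. Myoblasts/Progenitors followed with 58491 CPM (58190 to 58793, 175 cells). The other 22 labels of day 7 lay between 10505 CPM in B Cells and 20130 CPM in Smooth Muscle, with a median of 15748 CPM. Type IIb myonuclei thus exceeded that median 5.65-fold and Type IIx myonuclei 7.92-fold. MuSCs, the muscle stem cells, were within the common range at 17695 CPM (17396 to 17999, 137 cells).

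At day 2, 21 labels spanned 9096 to 23769 CPM with a median of 20052 CPM, and none approached the day 7 myonuclei. The highest were Endothelial (Vein) at 23769 CPM, FAPs (Stem) at 23471 CPM and MuSCs at 23095 CPM, whose intervals overlapped from one to the next. Of neighbouring labels in the order of levels, 13 pairs at day 2 and 17 pairs at day 7 had overlapping intervals, so most ranks within the common range could not be separated. Myonuclei at day 2 were represented by 6 Type IIb cells and Myoblasts/Progenitors by 1 cell, below the minimum for a level.

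**Figure D1:**
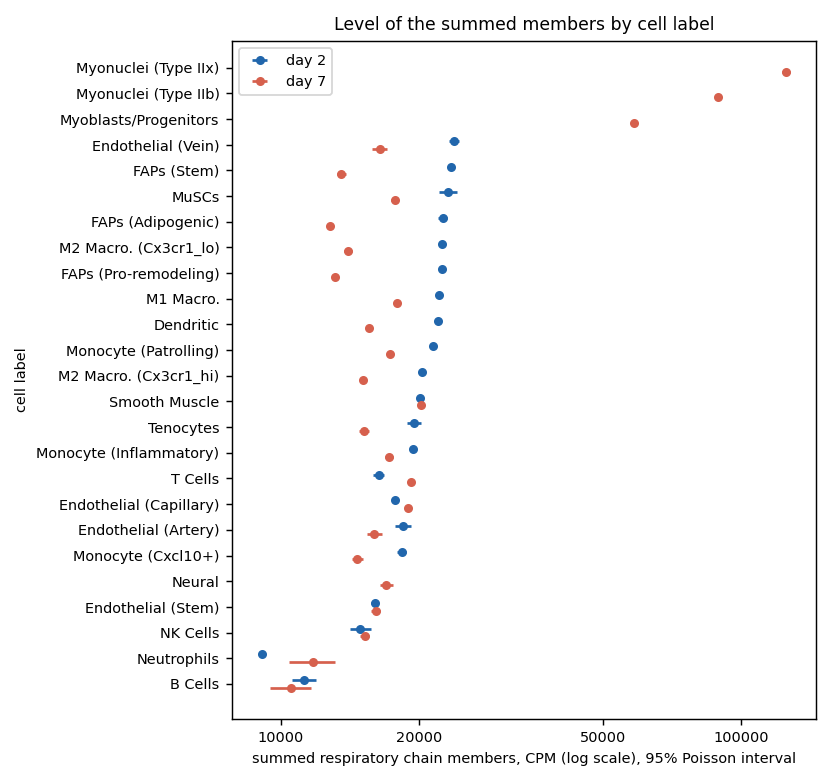
Summed level of the 84 nuclear-encoded respiratory chain genes in each cell label at day 2 and day 7, in CPM on a logarithmic axis, with 95% Poisson intervals. The 3 labels with myofiber transcripts stand above all others at day 7, and Neutrophils lie lowest at day 2 with 9096 CPM.

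The rise in myonuclei was shared by the complexes. In Type IIb myonuclei the members divided into 29.1% complex I, 1.95% complex II, 12.1% complex III, 24.0% complex IV and 30.6% complex V transcripts, compared with 27.1%, 2.14%, 11%, 29.8% and 28.3% in MuSCs of the same day. Relative to MuSCs, the level of complex I was 5.41-fold (5.21 to 5.62), of complex II 4.58-fold (3.98 to 5.28), of complex III 5.54-fold (5.22 to 5.89), of complex IV 4.05-fold (3.89 to 4.20) and of complex V 5.45-fold (5.25 to 5.66). The intervals of complexes II and IV overlapped, and that of complex IV lay below those of complexes I, III and V. Of the 83 members detected in labelled cells, 73 had their highest level in Type IIx myonuclei and 2 in Type IIb myonuclei. The other 8 were Cox8a and Cox7a2l (highest in MuSCs at day 7), Cox6a1 (Endothelial (Stem) at day 7), Cox4i2 and Ndufa4l2 (Smooth Muscle at day 7), Cox6b2 (Dendritic at day 2), Atp5sl (B Cells at day 7, from 1 count in 13 cells) and Cox7b2. Cox8c, a testis isoform, had 0 counts, and Cox7b2 had 1 count, in FAPs (Pro-remodeling) at day 7.

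To see how far single members moved, the myogenic labels of day 7 were set against MuSCs for the 73 members at 50 CPM or more in MuSCs. In Type IIb myonuclei 67 members were past 2-fold higher, with an interval that did not hold 0, and 2 were past 2-fold lower. By the same rule 9.31% of all 3105 genes were higher and 70.0% lower. In Type IIx myonuclei 70 members were higher and 2 lower, against 9.44% and 54.8% of genes. The median fold of the members was 5.84 in Type IIb and 7.63 in Type IIx myonuclei, while the median gene stood at 0.226-fold and 0.197-fold. A filter on MuSCs alone leaves out genes found mainly in myonuclei. With a mean of at least 50 CPM over MuSCs and the compared label, 71 and 74 of 77 members were higher and 2 each lower. By that filter 25.1% and 25.4% of genes were higher and 49.1% and 41.6% lower, with a median log2 ratio of -0.94 and -0.71. Between both fiber types, 73 of 76 members had a ratio of Type IIx to Type IIb above 1, as did 56% of 1726 genes, and the median log2 ratio was 0.46 beside 0.10 over all genes. The interval lay above 0 for 49 of the 76, and 1 was past 2-fold higher (4.75% of genes).

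**Figure D2:**
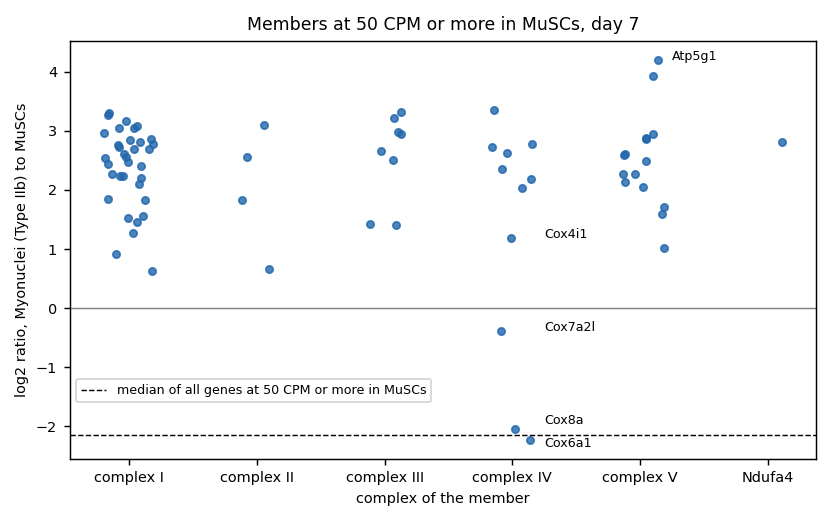
log2 ratio of each member in Myonuclei (Type IIb) relative to MuSCs at day 7, grouped by complex, for the 73 members at 50 CPM or more in MuSCs. Nearly all points lie above 0, Atp5g1 is highest, and Cox8a, Cox6a1 and Cox7a2l lie below 0. The dashed line is the median of all genes chosen by the same level.

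Averages over labels below are means over 46 sets of label and day, raised by the myonuclei. Among the complex I, II and III subunits, the accessory subunit Ndufb9, the most abundant complex I member on average over labels (357 CPM, median 243 CPM, where Ndufa13 at 304 CPM was highest), rose from 268 to 1780 CPM (log2 ratio 2.73, 2.51 to 2.97). Ndufs1, the large iron-sulfur subunit of complex I and the least abundant complex I member (43.7 CPM on average), stood at 53.2 and 100 CPM (0.91, 0.23 to 1.59) and was not called. Uqcrh, the hinge protein of complex III and its most abundant member (593 CPM on average), rose from 784 to 2068 CPM (1.40, 1.24 to 1.56). Uqcrq, another small complex III subunit, rose from 206 to 2071 CPM (3.33, 3.08 to 3.59). The complex II subunits ranged from 89.2 CPM for Sdhc, a membrane anchor, to 161 CPM for Sdhb, the iron-sulfur subunit, on average over labels. Uqcrc2, a core protein of complex III, was the least abundant of its complex at 114 CPM.

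Of complex V, Atp5g1 showed the greatest increase among these 73 members. It encodes 1 of 3 precursors of subunit c, the proton-carrying ring of the synthase, and the 3 genes give the same mature protein. Atp5g1 rose from 216 CPM in MuSCs to 3972 CPM in Type IIb myonuclei (log2 ratio 4.20, 3.97 to 4.45), and its share of the trio from 23.3% to 64.8%, with 72.7% in Type IIx. Atp5k, the subunit e gene and the least abundant member of complex V (179 CPM on average over labels), rose from 67.9 to 1031 CPM (3.93, 3.50 to 4.38). Atp5e, the epsilon subunit, was the most abundant of that complex at 732 CPM on average.

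Of the complex IV subunits with muscle isoforms, COX6A and COX8 were mostly of the muscle isoform in myonuclei, and COX7A was mixed. Cox6a2 went from 10.6 CPM (8 counts) in MuSCs to 2171 CPM (823 counts) in Type IIb myonuclei (log2 ratio 7.67, 6.69 to 8.89). Its ubiquitous counterpart Cox6a1 went the other way, from 197 to 42.2 CPM (fell by 2.22 on the log2 scale), and had 1 count in Type IIx myonuclei. The decrease of Cox6a1 in Type IIb was near that of the median gene at 50 CPM or more in MuSCs (0.226-fold). By the same filter 70.0% of genes were past 2-fold lower. The share of Cox6a2 in the pair was 5.13% in MuSCs, 98.1% in Type IIb and 99.6% in Type IIx myonuclei, a near complete exchange.

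Cox8b rose from 10.6 CPM (8 counts) to 1261 CPM (478 counts), with a log2 ratio of 6.89 (5.90 to 8.11), as Cox8a fell from 1009 to 245 CPM (fell by 2.04 on the log2 scale). The decrease of Cox8a was likewise near that of the median gene (0.226-fold). The Cox8b share was 1.04% in MuSCs, 83.7% in Type IIb and 81.8% in Type IIx myonuclei. Cox7a1 rose from 7.99 CPM (6 counts) to 1008 CPM (382 counts), with a log2 ratio of 6.98 (5.84 to 8.43). Here the counterpart rose too, since Cox7a2 went from 294 to 1198 CPM, and the Cox7a1 share reached 45.7% in Type IIb and 53.8% in Type IIx myonuclei. The COX7A pair was thus mixed, whereas the COX6A pair was not. In MuSCs the ratios of Cox6a2, Cox7a1 and Cox8b to Acta1, skeletal actin, were 0.0412, 0.0309 and 0.0412, with intervals that held those of free RNA (0.0292, 0.0174 and 0.0205). The 8, 6 and 8 counts in MuSCs could therefore not be told from free RNA, and neither could the MuSC shares, and the 3 log2 ratios are set against that background and not against a measured expression.

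The complex IV genes expressed in every tissue ranged widely in the same comparison. Cox5a, at 221 and 2250 CPM (log2 ratio 3.35, 3.11 to 3.60), Cox7b, at 258 and 1715 CPM (2.73), and Cox6b1, at 282 and 1741 CPM (2.63), all subunits outside the catalytic core, rose beyond Cox4i1, and these 3 were chosen after their values were seen. Cox4i1, the most abundant complex IV member (918 CPM on average over labels), rose from 1094 to 2493 CPM (log2 ratio 1.19, 1.05 to 1.32). Cox7a2l, a COX7A-related gene described as a factor of supercomplexes, stood at 588 CPM in MuSCs and 451 CPM in Type IIb myonuclei (-0.38, -0.65 to -0.13). It was called in neither fiber type, and no supercomplex was measured in these mice.

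Promoter sequence was available for both members of the COX7A and COX8 pairs and for Atp5g1 and Atp5g2. The 250 bases before the start of transcription are shown 5′ to 3′ on the strand of the gene (RefSeq, GRCm38.p6), so that the muscle isoform can be read beside its counterpart. Capitals mark each match to CANNTG, the E-box bound by MYOD and related factors, or to the site of NRF1, an activator of many respiratory genes.
Cox7a1, chr7:30183921-30184170, plus strand: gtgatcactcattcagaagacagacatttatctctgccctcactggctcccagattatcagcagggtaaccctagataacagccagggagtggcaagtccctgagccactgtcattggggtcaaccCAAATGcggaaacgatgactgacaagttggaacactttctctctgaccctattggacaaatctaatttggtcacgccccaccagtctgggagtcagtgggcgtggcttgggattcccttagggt
Cox7a2, chr9:79759854-79760103, minus strand: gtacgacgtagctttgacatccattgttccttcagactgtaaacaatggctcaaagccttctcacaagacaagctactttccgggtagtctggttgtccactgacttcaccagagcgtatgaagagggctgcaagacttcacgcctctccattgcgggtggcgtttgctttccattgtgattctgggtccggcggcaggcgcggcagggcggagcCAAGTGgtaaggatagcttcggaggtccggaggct
Cox8b, chr7:140900447-140900696, minus strand: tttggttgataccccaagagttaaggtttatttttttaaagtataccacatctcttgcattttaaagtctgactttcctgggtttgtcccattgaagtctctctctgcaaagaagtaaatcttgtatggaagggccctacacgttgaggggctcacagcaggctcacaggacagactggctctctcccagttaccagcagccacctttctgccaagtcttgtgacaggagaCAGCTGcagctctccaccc
Cox8a, chr19:7217617-7217866, minus strand: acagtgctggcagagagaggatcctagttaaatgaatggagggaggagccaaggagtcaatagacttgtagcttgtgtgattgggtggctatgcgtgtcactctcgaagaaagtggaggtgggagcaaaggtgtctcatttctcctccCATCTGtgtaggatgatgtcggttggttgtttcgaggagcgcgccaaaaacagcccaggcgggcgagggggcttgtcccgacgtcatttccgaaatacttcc
Atp5g1, chr11:96075632-96075881, minus strand: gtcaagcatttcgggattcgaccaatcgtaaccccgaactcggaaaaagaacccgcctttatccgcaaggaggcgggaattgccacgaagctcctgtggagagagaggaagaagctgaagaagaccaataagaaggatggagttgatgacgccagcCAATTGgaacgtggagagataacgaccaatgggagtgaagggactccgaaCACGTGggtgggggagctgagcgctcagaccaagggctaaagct
Atp5g2, chr15:102671048-102671297, minus strand: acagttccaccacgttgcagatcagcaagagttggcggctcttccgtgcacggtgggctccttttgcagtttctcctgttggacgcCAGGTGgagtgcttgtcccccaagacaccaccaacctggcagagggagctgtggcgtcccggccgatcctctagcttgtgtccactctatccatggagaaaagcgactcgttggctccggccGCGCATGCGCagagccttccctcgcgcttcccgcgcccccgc

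Both members of each COX pair held 1 E-box and no other motif searched, so these letters did not separate the muscle isoform from its counterpart. The E-box lay 19 bases before the start in Cox8b and 102 bases in Cox8a. Atp5g1 held 2 E-boxes, whereas Atp5g2 held 1 E-box and an NRF1 match 42 bases before its start.

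Over all windows of 300 bases (250 before to 50 after the start), 66 of the 84 members matched a RefSeq entry, with 71 windows, and both strands were searched. The NRF1 letters occurred in 25.4% of member windows and in 4.60% of all 32851 windows. They were found for 17 members, which included Sdha, Sdhd, Uqcrc1, Cox6a1 and 6 complex V genes. The letters AAGATGGCG, a YY1 site, occurred in 9.86% of member windows and 1.40% of all, and TCAAGGTCA, an estrogen-related receptor site, in 2.82% and 0.423%. CCGGAAGTG, bound by the ETS family, occurred in 2.82% and 2.03%. The E-box letters were present in 67.6% of member windows and 72.3% of all, and MEF2, searched by its name, matched 0 member windows and 3.19% of all. A match describes the letters and no binding was measured. The matches in the sequences shown did not overlap.

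The other genes of the pathway were read with the same day 7 comparison of Type IIb myonuclei with MuSCs and the same filter of 50 CPM in MuSCs, where 9.31% of genes were higher and 70.0% lower. The electron carriers and associated genes outside the rule were higher for 3 of 4 (Ndufab1, Cyc1 and Usmg5) and lower for 0, the assembly factors higher for 2 of 3 (Cox14 and Uqcc2) with Surf1 lower, the citrate cycle enzymes higher for 8 of 10 and lower for 0, and the glycolytic enzymes higher for 7 of 9 with Pgam1 lower. Summed glycolytic transcripts were 19.4-fold higher in Type IIb and 12.6-fold higher in Type IIx myonuclei. In contrast, 63 of 74 cytosolic ribosomal protein genes were lower and 1 higher. Of the regulators of respiratory genes, Yy1 alone passed the filter and was lower.

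The mitochondrially encoded subunits went the opposite way from their nuclear partners. All 13 passed the filter and were past 2-fold lower in Type IIb myonuclei, as were 70.0% of genes. Their sum fell from 83126 CPM in MuSCs to 16937 CPM in Type IIb and 13869 CPM in Type IIx myonuclei. These sums stood at 0.204-fold and 0.167-fold of MuSCs, near the median gene of the same filter at 0.226-fold and 0.197-fold. The ratio of nuclear to mitochondrially encoded transcripts was 0.213 in MuSCs, 1.22 in Myoblasts/Progenitors, 5.25 in Type IIb and 9 in Type IIx myonuclei. The limits on cells had kept 76 of 162 annotated Type IIb and 20 of 39 annotated Type IIx cells. Cells above 30% mitochondrial transcripts had been removed, and the share of cytosolic and nuclear RNA in each droplet was not measured. Whether that share had a part in this ratio was not tested.

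The level of Myoblasts/Progenitors was a mean over unlike cells. When the 175 cells were divided by the share of their transcripts that came from the 9 myofiber markers, with limits chosen after the data were seen, 119 cells held under 1%, 7 cells 1% to 20%, and 49 cells 20% or more. The first set had 24117 CPM of members (23864 to 24372), with Pax7, the stem cell factor, at 294 CPM, Myog, which drives differentiation, at 748 CPM and Acta1, skeletal actin, at 193 CPM. The last set had 109962 CPM (109294 to 110633), with Pax7 at 0, Myog at 2.12 and Acta1 at 81440 CPM. The 7 cells between them had 68092 CPM (66444 to 69770).

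In the 119 cells under 1% myofiber markers the median member was 1.40-fold above MuSCs, and 0 of 73 members were past 2-fold higher, against 0.934% of all genes, and 0 lower, against 2.48%. Cox6a2 made up 2.96% of its pair there. In the 49 cells with 20% or more, 67 of 73 members were higher and 2 lower, against 9.18% and 72.8% of genes, and the shares of Cox6a2, Cox7a1 and Cox8b were 97.3%, 50.9% and 78.6%. Before this division, 64 of 73 members of the label were higher and 0 lower, against 6.44% and 17.9% of genes. Thus the values of the whole label lay between those of its cells under 1% and of its cells at 20% or more. The cells under 1% differed from MuSCs, which held Myog at 34.6 CPM and Pax7 at 474 CPM.

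**Figure D3:**
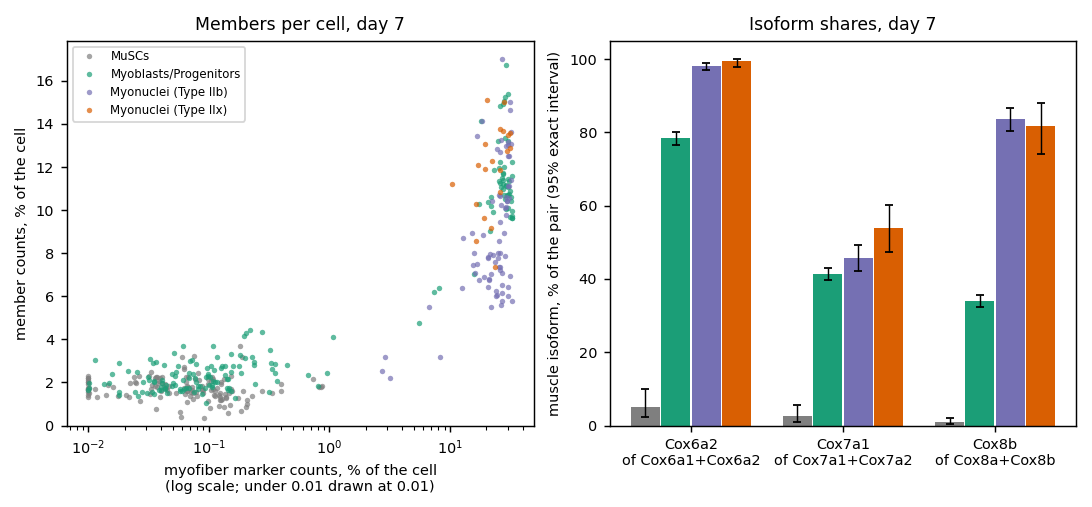
Left, share of transcripts from the nuclear-encoded respiratory chain genes in each cell of the 4 myogenic labels at day 7 against the share from 9 myofiber markers (logarithmic axis), both in percent; right, share of Cox6a2, Cox7a1 and Cox8b in its pair per label, with 95% exact intervals. In the left panel, cells under 1% myofiber markers are MuSCs and most Myoblasts/Progenitors, few cells lie between 1% and 5%, and cells at 20% or more hold about 10.7% respiratory chain transcripts. In the right panel Cox6a2 reaches 98.1% and 99.6% in the myonuclei and Cox7a1 45.7% and 53.8%.

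Across the cells of all 4 myogenic labels the isoform shares followed the same division. The 256 cells under 1% myofiber markers had 3.57% Cox6a2, 1.76% Cox7a1 and 0.528% Cox8b in their pairs, and the 121 cells at 20% or more had 97.9%, 50.1% and 80.9%. Of the few between, 27 cells at 5% to 20%, of which 14 were labelled Type IIb and 7 Type IIx myonuclei, had 95% Cox6a2 (91.4 to 97.4), and 4 cells at 1% to 5% had 12.5% (1 of 8 counts). The 7 Myoblasts/Progenitors at 1% to 20% had 85.6% Cox6a2 (76.6 to 92.1), 33.3% Cox7a1 (25.5 to 42.0) and 44.7% Cox8b (36.6 to 53.0), between the shares of the other cells of that label.

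Outside the myogenic labels the muscle isoforms were scarce, and their counts were set against Acta1 in the same way. In free RNA at day 7, Cox6a2 stood at 182 CPM, Cox7a1 at 109 CPM, Cox8b at 128 CPM and Acta1 at 6239 CPM. At day 7, the interval of the ratio to Acta1 held the ratio of free RNA in 20 of 21 labels for Cox8b, in 17 of 21 for Cox7a1 and in 15 of 21 for Cox6a2. In these labels the isoforms could not be separated from free RNA, and the remaining labels had a higher ratio.

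For Cox6a2 the label with the most counts above that proportion was Dendritic. It held 9 counts (4.19 CPM) at day 2 and 71 counts (68.3 CPM, 53.4 to 86.2) at day 7, when its ratio to Acta1 was 0.493 and that of free RNA 0.0292. The counts lay mainly in cells with 3 or more transcripts of Siglech and Ccr9, genes known from plasmacytoid dendritic cells, a division made after the values were seen. At day 7 these 36 cells held 65 of the 71 counts (274 CPM), in 17 cells, and the other 109 cells held 6 (7.48 CPM). At day 2, 8 such cells held 7 of the 9 counts. In the 36 cells Cox6a2 made up 57.5% (47.9 to 66.8) of its pair, compared with 3.87% (1.43 to 8.23) in the other 109 cells.

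Cox7a1 had a higher ratio to Acta1 than free RNA in 8 of 20 labels at day 2, 7 of which were macrophage, monocyte or dendritic labels. In M2 Macro. (Cx3cr1_lo) it stood at 19.3 CPM (61 counts) and was found in 49 of 242 cells (20.2%), and in M1 Macro. in 56 of 468 cells (12%), compared with 2 of 708 Neutrophils (0.282%). Median depths were 12355, 13636 and 2351 transcripts per cell. With each cell thinned to 2000 transcripts the shares were 4.15%, 1.93% and 0. Thinned shares of day 2 were also 1.29% in Endothelial (Capillary), 0.331% in Smooth Muscle and 0 in FAPs (Pro-remodeling). At day 7 they were 1.98% in M2 Macro. (Cx3cr1_lo) and 1.75% in M1 Macro., beside 2.01% in Endothelial (Capillary) and 1.62% in FAPs (Pro-remodeling). The remaining rare isoform, Cox6b2, a testis isoform, was highest in Dendritic cells at day 2 with 33 counts, or 15.4 CPM (10.6 to 21.6).

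Cox4i2 and Ndufa4l2 were highest in the cells of the vessel wall. In Smooth Muscle, Cox4i2 stood at 54.6 CPM (48.4 to 61.4) at day 2 and 76.0 CPM (66.0 to 87.1) at day 7, and made up 6.90% and 7.93% of its pair. In that label Ndufa4l2 stood at 159 CPM (149 to 171) and 255 CPM (236 to 275), or 32.8% and 44.9% of its pair. In Endothelial (Capillary), Cox4i2 had 8 counts at day 2 and 5 at day 7. Free RNA held 2.62 and 4.03 CPM of Cox4i2 and 8.51 and 23.4 CPM of Ndufa4l2.

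Since the label held many endothelial transcripts, its cells were divided by whether mural or endothelial marker counts were the more numerous. The 58 mural cells at day 2 had 153 CPM of Cox4i2 and 476 CPM of Ndufa4l2, and the 246 others had 38.3 and 107 CPM. The 58 mural cells at day 7 had 276 and 832 CPM, and the 174 others had 45.9 and 168 CPM. In the mural cells the pair shares were 16.5% and 21.9% for Cox4i2 and 66.0% and 75.1% for Ndufa4l2 at day 2 and day 7. The level per transcript was thus higher in the mural cells on both days, although the others, being more numerous, held 168 of 279 Cox4i2 counts and 468 of 814 Ndufa4l2 counts at day 2, and 108 of 206 and 396 of 691 at day 7.

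Within the mural cells, those with 2 or more transcripts of Kcnj8 and Abcc9, the potassium channel subunits of pericytes, had more Cox4i2 on both days and more Ndufa4l2 at day 7. At day 7 the 35 such cells had 383 CPM of Cox4i2 (302 to 479) and 966 CPM of Ndufa4l2 (835 to 1112), against 137 CPM (84.6 to 209) and 657 CPM (535 to 798) in the other 23. At day 2 the 50 such cells had 176 CPM of Cox4i2 (144 to 213), against 46.5 CPM (17.1 to 101) in the other 8, while the intervals of Ndufa4l2 overlapped, at 490 CPM (436 to 550) and 411 CPM (308 to 537). This division was also chosen after the values were seen.

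**Figure D4:**
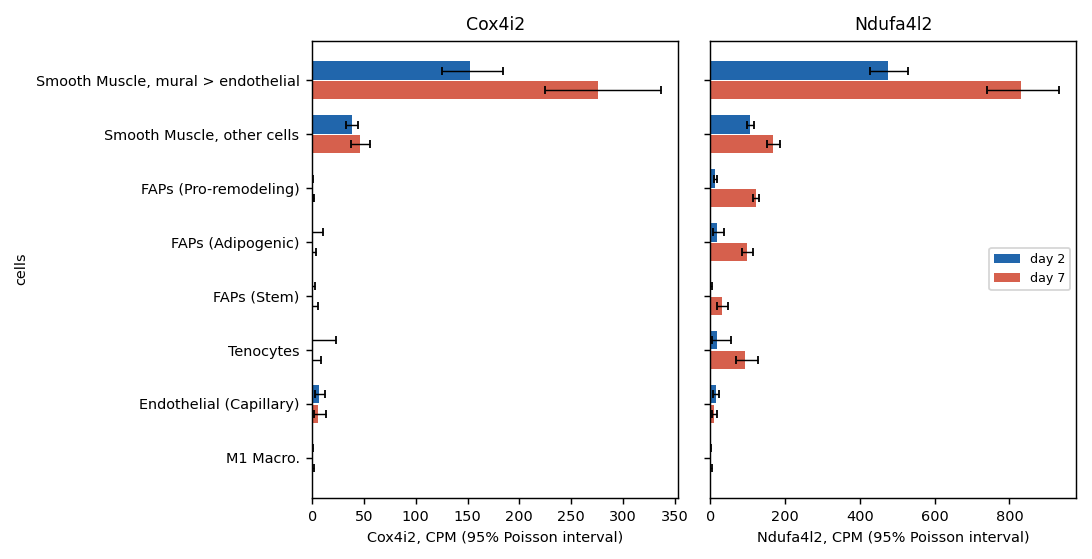
Cox4i2 and Ndufa4l2 levels in CPM at day 2 and day 7 in Smooth Muscle cells divided by mural and endothelial marker counts and in 6 other labels, as bars with 95% Poisson intervals. The mural cells lie above the other sets drawn for both genes on both days, and Ndufa4l2 is also raised in the FAPs and Tenocytes of day 7.

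Ndufa4l2 was also abundant at day 7 in fibro-adipogenic progenitors (FAPs), the mesenchymal cells that lay down matrix. In FAPs (Pro-remodeling) it was at 12.5 CPM (44 counts) at day 2 and 122 CPM (721 counts) at day 7, a log2 ratio of 3.29 (2.85 to 3.76). It was found in 32 of 138 cells (23.2%) and 306 of 495 cells (61.8%), and after thinning to 2000 transcripts in 2.17% and 15.2%. In T Cells at day 7 the unthinned share was 1.71%, and in Neutrophils at day 2 it was 0 of 708 cells, at median depths of 3620 and 2351 transcripts beside 10156 in the FAPs of day 7. At day 7 FAPs (Adipogenic) stood at 99.0 CPM and Tenocytes at 94 CPM, and FAPs (Stem) lower at 31.0 CPM. Within the pair Ndufa4l2 made up 36.1% in FAPs (Pro-remodeling) at day 7.

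The libraries of day 2 and day 7 were then compared within the 11 labels with at least 50 kept cells in each. The summed members were lower at day 7 in 7 labels, higher in 2, and had an interval that held no difference in 2. With median-of-ratios scaling, which divides by the median ratio of genes with 50 or more counts, they were lower in 7, higher in 4, and Monocyte (Inflammatory) turned from -0.17 to 0.0760. The median gene was itself lower at day 7 in the macrophage and monocyte labels, and the members' median less that of all genes was 0.00578 in M1 Macro., 0.0958 in Monocyte (Inflammatory), -0.05 in Monocyte (Patrolling), -0.13 in M2 Macro. (Cx3cr1_hi) and -0.47 in M2 Macro. (Cx3cr1_lo). The largest decrease was in FAPs (Pro-remodeling), from 22440 to 13086 CPM (log2 ratio -0.78, -0.79 to -0.76). M2 Macro. (Cx3cr1_lo) followed with 22442 to 13991 CPM (-0.68, -0.72 to -0.65) and Dendritic with 21985 to 15529 CPM (-0.50, -0.53 to -0.48). In Dendritic, 8 of 170 cells at day 2 and 36 of 145 at day 7 held 3 or more Siglech and Ccr9 transcripts. Whether this difference in make-up had a part in the day ratios of Dendritic was not tested. Endothelial (Stem) and Smooth Muscle each stood at 0.01.

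In Endothelial (Capillary) the sum went from 17731 to 18882 CPM (log2 ratio 0.09, 0.06 to 0.12) and in T Cells from 16303 to 19171 CPM (0.23, 0.19 to 0.28). Restricted to cells with 2 or more Cd3 transcripts and under 3 endothelial marker transcripts, T Cells went from 11788 CPM in 17 cells to 17964 CPM in 226 cells (0.61, 0.49 to 0.73). The direction remained with the restriction, but the day 2 value then rested on 17 cells.

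All 5 complexes were lower at day 7 in FAPs (Pro-remodeling), from complex V at 6816 and 3565 CPM (log2 ratio -0.93) to complex I at 6654 and 4216 CPM (-0.66). The interval of complex V overlapped that of complex III (-0.89), and that of complex I overlapped that of complex IV (-0.68). The mitochondrially encoded subunits of those cells went from 41067 to 37428 CPM (-0.13), glycolytic transcripts from 3973 to 1287 CPM (-1.63) and cytosolic ribosomal protein transcripts from 188242 to 97800 CPM (-0.94). In M2 Macro. (Cx3cr1_lo), complex V went from 6699 to 3711 CPM (-0.85) and complex II from 526 to 447 CPM (-0.24), with glycolysis at -1.30, whereas the mitochondrially encoded subunits went from 54343 to 58242 CPM (0.10, 0.083 to 0.117). Over the 11 labels, 31 of 102 glycolytic pairs of label and gene were past 2-fold lower and 4 higher, and 2 of 132 mitochondrially encoded pairs were lower and 0 higher. Of the carriers 20 of 55 pairs were lower and 1 higher, of the assembly factors 12 of 40 and 0, of the citrate cycle 15 of 87 and 1, of the cytosolic ribosomal proteins 70 of 797 and 25, and of the regulators 0 of 12 and 0. Over all genes 14.5% of pairs were lower and 10.4% higher.

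Single members mostly changed by less than 2-fold between days. Of 805 pairs of a label and a member at a mean of at least 50 CPM, 12 were past 2-fold higher at day 7 (1.49%) and 67 past 2-fold lower (8.32%). Both shares were smaller than those over all genes of these labels (10.4% and 14.5%). With calls at 1.5-fold the lower share of the members, 28.7%, was no longer smaller than that of genes, 28.6%. The lower calls were spread over 33 members, and the higher calls over 4.

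FAPs (Pro-remodeling) held 24 of 74 members past 2-fold lower, against 20.8% of genes, and M2 Macro. (Cx3cr1_lo) 23 of 73, against 20.4%. The median member of FAPs (Pro-remodeling) had a log2 ratio of -0.82 beside -0.18 for the median gene, and that of M2 Macro. (Cx3cr1_lo) -0.81 beside -0.34. With median-of-ratios scaling, which moved the median gene from -0.18 to -0.36 and from -0.34 to -0.05, these 2 labels had 33 and 11 members lower, against 26% and 11.5% of genes. The Dendritic median was -0.62 beside -0.14, with 7 of 73 lower against 9.52% of genes. M2 Macro. (Cx3cr1_hi) had 7 of 73 lower against 18.9% (3 against 12.2% with the other scaling), and in M1 Macro. (18.9%) and Monocyte (Inflammatory) (18.6%) 2 each were lower (0 and 1 with the other scaling, against 12.9% and 12.3% of genes). Of the others, Monocyte (Patrolling) (16.6% of genes lower) and Endothelial (Stem) (12%) had 1 lower (0 and 1 with the other scaling, against 9.83% and 11%), and Endothelial (Capillary) (10.1%), Smooth Muscle (7.48%) and T Cells (9.48%) had 0.

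Higher calls were 2 in Monocyte (Inflammatory), against 9.06% of genes, and 1 in each of the other 10 labels (with the other scaling 3 in Monocyte (Inflammatory), 0 in T Cells and 1 in each of the remaining 9). There the share of genes higher was 16.7% in FAPs (Pro-remodeling), 10.2% in M2 Macro. (Cx3cr1_lo), 9.97% in M2 Macro. (Cx3cr1_hi), 10% in M1 Macro., 7.34% in Dendritic and 9.71% in Monocyte (Patrolling). In the remaining labels it was 11.2% in Endothelial (Capillary), 12.8% in Endothelial (Stem), 8.94% in Smooth Muscle and 7.8% in T Cells. In M1 Macro. the member median of -0.34 equalled the gene median, and in T Cells it was 0.26 beside -0.04.

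**Figure D5:**
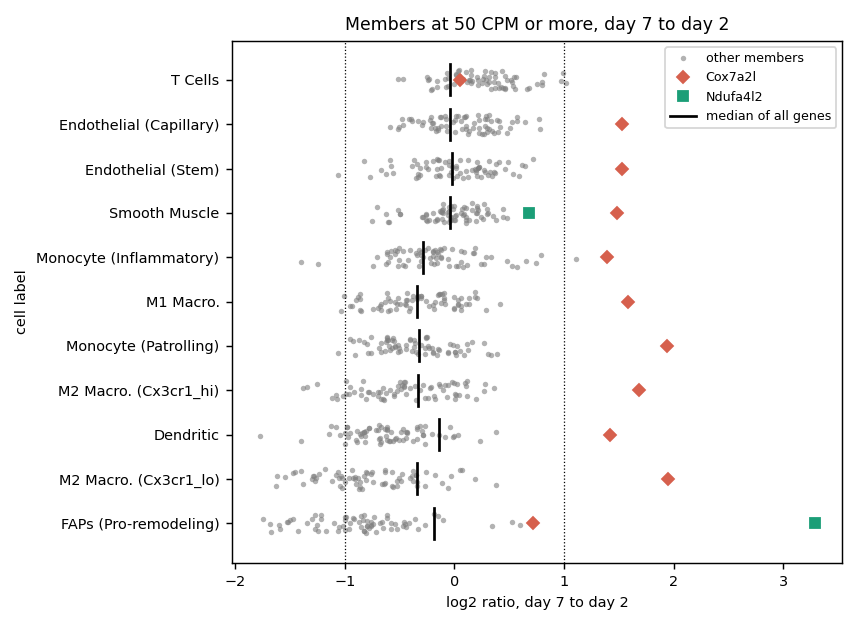
log2 ratio of day 7 to day 2 for each member at a mean of at least 50 CPM, in the 11 labels with 50 or more cells on both days. Black bars give the median of all genes, dotted lines mark 2-fold, and Cox7a2l (diamonds) and Ndufa4l2 (squares) stand to the right of the other members in most labels where they were measured.

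Cox7a2l was the member most often higher at day 7. It was past 2-fold higher at day 7 in 9 of the 11 labels, with a median log2 ratio of 1.52, and stood at 0.72 in FAPs (Pro-remodeling) and 0.05 in T Cells. In M2 Macro. (Cx3cr1_lo) it went from 107 to 415 CPM (1.95, 1.71 to 2.19), and in M1 Macro. from 130 to 390 CPM (1.59, 1.46 to 1.71). Its levels over all labels were 64.7 to 349 CPM (median 134) at day 2 and 201 to 588 CPM (median 359) at day 7, and 12 of 22 labels of day 7 lay above every label of day 2.

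Cox7a2l was also higher at day 7 outside the labelled cells. In barcodes without an annotation it stood at 144 and 304 CPM, and in free RNA at 50.8 and 214 CPM, where the share of all members went from 0.814% to 1.61%. With 1 library from 1 mouse a day, the library and the day cannot be told apart for this gene.

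The members most often lower at day 7 were Ndufb2 and Ndufb6, small accessory subunits of the membrane arm of complex I. Ndufb2 was called lower in 7 of 11 labels (median log2 ratio -1.06), and its median level over all labels went from 133 to 60.4 CPM. Its greatest decrease was in Dendritic cells, from 142 to 41.4 CPM (-1.77, -2.27 to -1.31). Ndufb6 was called lower in 6 labels (median -1.04), with a median level of 180 CPM at day 2 and 83.8 CPM at day 7. With median-of-ratios scaling the calls were 5 labels for Ndufb2 and 4 for Ndufb6. In barcodes without an annotation Ndufb2 stood at 137 CPM at day 2 and 75.7 CPM at day 7, and Ndufb6 at 186 and 144 CPM. In free RNA, with its higher share of members at day 7, Ndufb2 stood at 52.7 and 77.1 CPM and Ndufb6 at 79.2 and 86.0 CPM.

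The Atp5g trio shifted within itself. The share of Atp5g1 had a median of 39.9% (28.6 to 44.3) over 21 labels at day 2 and 25.8% (15 to 34.3) over 22 non-myofiber labels at day 7. That of Atp5g2 had a median of 35.5% (29.2 to 48.5) and 50.9% (41.2 to 70.0), and Atp5g3 stood at 23.3% and 21.7%. In Dendritic cells Atp5g1 went from 494 to 187 CPM (-1.40) and Atp5g2 from 392 to 510 CPM (0.38). In Monocyte (Inflammatory) Atp5g2 was past 2-fold higher, from 231 to 498 CPM (1.10, 0.89 to 1.31). The ranges of the Atp5g1 share thus overlapped between days, but in myonuclei of day 7 the share was 64.8% and 72.7%, outside both.

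The remaining named members differed by label. In FAPs (Pro-remodeling), Ndufa12, an accessory subunit of complex I, went from 246 to 73.5 CPM (-1.74, -1.91 to -1.58), and Cox5a, a complex IV subunit of every tissue, from 422 to 131 CPM (-1.68, -1.81 to -1.56). In M2 Macro. (Cx3cr1_lo), Cox7b, a small complex IV subunit, went from 433 to 140 CPM (-1.63) and Ndufs4, a late-assembling complex I subunit, from 138 to 45.0 CPM (-1.62). The former pair rested on 433 or more counts a day and the latter on 26 or more.

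The endothelial labels and the T Cells showed smaller differences. In Endothelial (Capillary), Ndufa8, an accessory complex I subunit, stood at 197 CPM at day 2 and 338 CPM at day 7 (0.78) and Atp5k at 171 and 114 CPM (-0.59), neither past 2-fold. In Endothelial (Stem), the accessory complex I subunit Ndufa13 stood at 137 and 226 CPM (0.72), short of 2-fold. In T Cells, Ndufb11, also of complex I, went from 139 to 282 CPM (1.02, 0.54 to 1.53), past 2-fold but not with median-of-ratios scaling, and Ndufv3, a flavoprotein-arm subunit, stood at 69.7 and 138 CPM (0.99). The T Cells values of day 2 rested on 38 and 19 counts.

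Ndufa12 was also among the 2 lowest ratios of 3 other labels. It stood at 179 CPM at day 2 and 68.5 CPM at day 7 in M2 Macro. (Cx3cr1_hi) (-1.38, -1.78 to -0.99), at 183 and 103 CPM in Endothelial (Stem) (-0.82) and at 169 and 118 CPM in T Cells (-0.52). Ndufa4 went from 395 to 167 CPM in Monocyte (Inflammatory) (-1.24, -1.56 to -0.93). Uqcrh was among the highest ratios in M2 Macro. (Cx3cr1_lo) (0.38) and Monocyte (Patrolling) (0.39), Atp5g2 in M1 Macro. (0.42) and M2 Macro. (Cx3cr1_hi) (0.36), none past 2-fold. Atp5g1 stood at -0.75 in Smooth Muscle and -0.52 in Endothelial (Capillary), and Uqcr11, a small complex III subunit, at -0.47 in T Cells.

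At day 2 the lowest level of all labels was that of Neutrophils, 9096 CPM (8963 to 9231, 708 cells), or 0.452 of the median of the other labels. The 10 Neutrophils of day 7 stood at 11725 CPM (10439 to 13124). Against Monocyte (Inflammatory) of the same library, 43 of 67 members were past 2-fold lower and 0 higher, against 25.2% and 18.9% of genes, and 17 members lay below the filter. The median log2 ratio was -1.22 for members and -0.15 for genes.

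In Neutrophils, Uqcrb, the ubiquinone-binding protein of complex III, stood at 72.9 CPM beside 345 CPM in the monocytes (-2.24, -2.51 to -1.98), and Ndufa11, an accessory complex I subunit, at 34.9 beside 154 CPM (-2.14). Cox8a was nearly level, at 700 and 753 CPM (-0.10, -0.21 to -0.00375), and Ndufs7, a core iron-sulfur subunit of complex I, stood at 73.4 and 65.5 CPM (0.16, -0.17 to 0.50). Cytosolic ribosomal protein genes were lower for 68 of 70, while 4 of 12 mitochondrially encoded genes were higher and 0 lower. With at least 1500 genes and at most 10% mitochondrial transcripts per cell, 28 Neutrophils remained, at 16636 CPM or 0.811 of the median of the other labels. The low value of the label thus did not hold in full under these limits, which removed nearly all of its cells (median of 2351 transcripts per cell for the label).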

How the data were processed

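The files were read for 1 library of day 2 and 1 of day 7. The authors aligned the 10x v3 reads to mm10 with Cell Ranger (3.1.0 in the submitters' processing notes, 3.0.1 in the matrix header) and deposited UMI counts for every barcode and for barcodes called as cells. The deposited estimated counts, from which SoupX had subtracted free RNA, served as an alternative. Cell labels came from the authors' clustering of a larger collection, made after doublet removal with DoubletFinder, and the submitters' notes name Seurat 3.1.5.

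Annotated barcodes with at least 750 genes, 1000 transcripts and at most 30% mitochondrial transcripts were kept. No further doublet caller was run. Counts were summed per label and day and divided by all counts of the label (CPM), with exact Poisson intervals, Clopper-Pearson intervals for shares and exact conditional binomial intervals for ratios. Between 2 sets of cells, a gene with a mean of at least 50 CPM was called when past 2-fold with a 95% interval that did not hold 0. For the myogenic labels the filter was 50 CPM in MuSCs. With 1 library a day there was no test. For shares of cells with a transcript, cells were thinned to 2000 transcripts.

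Named members were the isoforms, the highest and lowest member of each complex, and the 2 highest and 2 lowest ratios of each compared label. The members, lists and comparisons were chosen with earlier results of these data known. The comparisons between labels, the divisions of a label and the 17 NRF1 members were added after the data were seen. The scripts were tested on simulated data and used Python 3.11.15, numpy 2.4.6, scipy 1.17.1 and pandas 2.3.3. Promoters came from RefSeq GRCm38.p6 (66 of 84 members). Annotated barcodes numbered 3537 and 3416, of which 43 and 31 had no label.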

Additional observations from a re-analysis of the deposited data

Results flagged for a closer look

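Barcodes called as cells that were absent from the annotation but lay within the limits on cells belonged to no label and entered no comparison between labels. They held the members at 20822 CPM (20704 to 20941, 680 barcodes) at day 2 and 21155 CPM (20997 to 21314, 477 barcodes) at day 7 (medians of the labels 20052 and 16074 CPM). The day 7 value lay above the 10505 to 20130 CPM of the 22 labels other than Myoblasts/Progenitors and myonuclei. Cox6a2 made up 0.470% and 1.59% of its pair in them.

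Endothelial (Capillary) and T Cells were picked out because their summed members had a log2 ratio of day 7 to day 2 above 0, at 0.0907 and 0.234, whereas 7 labels lay below 0. The difference between labels was not tested, since each day had 1 library. The T Cells of day 2 held more basophil and endothelial than T cell marker transcripts.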

How the results depend on the processing

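Of the main values recomputed under the alternatives, 65 stayed within counting error or within 1.5 times of the count and 25 moved. The Type IIb level relative to the median of other labels (5.65) was 5.76 with SoupX values, 5.81 without limits on cells and 5.47 with stricter limits (11 cells). It was 5.46 scaled to counts outside the mitochondrially encoded genes and 5.82 as a mean over cells. The Type IIx value (7.92) was 8.12 with SoupX values, 9.45 with stricter limits (1 cell) and 7.63 with the outside scaling. The Neutrophil value (0.452) was 0.422 without limits, 0.811 with stricter limits, 0.460 with the outside scaling and 0.414 as a mean over cells. In thinned Smooth Muscle cells the Cox4i2 share was 9.41% at day 2 and 10.5% at day 7, and the Ndufa4l2 share 37.2% and 57.3%. In mural cells alone they were 16.5% and 21.9%, and 66.0% and 75.1%. Labels with summed members more than 1.2-fold lower at day 7 numbered 6, and 3 with median-of-ratios scaling. Labels more than 1.2-fold higher numbered 0, and 1 as a mean over cells. Pairs of label and member past the fold higher numbered 12, but 39 without the level filter (4.35%, against 11.4% of genes) and 30 at 1.5-fold (3.73%, against 18.2%). Those lower numbered 67, but 231 at 1.5-fold (28.7%, against 28.6%), and 68 without the level filter (7.59%, against 7.64%). The log2 ratio of the summed members in Monocyte (Inflammatory) turned from -0.17 to 0.0760 with median-of-ratios scaling, and the cause was not tested. The Cox7a2l count was 9 of 11 labels under every alternative but 1.5-fold (10). No paired analysis was possible because each day had 1 library and no test was made. Labels of few cells and members under 50 CPM are limited by depth.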
